A study of Mus musculus with 11 samples.

Results

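Skeletal muscle fibre genes are the genes whose products build and power the contractile fibres of voluntary muscle, a tissue that lies beneath the mammary fat pads. A list of 36 such genes was followed in the expression table of mouse mammary tissue at parturition (L1), where each gene was matched by its symbol and took the value of its highest locus. Of the 36 genes, 35 were measured, among 14847 named genes in all; Myh7, the slow myosin heavy chain gene, was not analysed here. The list rests on the known place of these genes in muscle fibres, and was drawn up with earlier results of these data known.

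The tissue came from wild type mice of the mixed background 129SV::FVB/N::C57BL/6, and was whole mammary gland collected without lymph nodes, with no treatment named. The series held STAT5A and H3K4me3 ChIP-seq of pregnancy and of L1, and RNA-seq of L1 only. Of its 11 samples 1 was used, the RNA-seq library of the L1 stage. The ChIP-seq lists could not be assigned to these genes with the annotation at hand. How many animals gave the tissue is not stated in the labels. With 1 library there is no replicate check, no error can be given for any value and no test was made. All values are FPKM, by definition fragments scaled by the length of the locus and by the mapped fragments of the library. How the authors computed them is not stated, so levels of different genes can be set side by side only roughly. The sequencing depth is unknown, and how many fragments stand behind a low value is therefore unknown too.

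Skeletal muscle contracts when calcium, released from the sarcoplasmic reticulum, binds the troponin complex on the thin actin filaments and lets the myosin heads of the thick filaments pull on them. Fast and slow fibres use different genes for many of these parts: each has its own troponin subunits, myosin heavy and light chains and calcium pump. The contractile cells of the gland itself, the myoepithelial cells, use a smooth muscle set of genes instead.

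The identity of the tissue was checked with defining markers. Csn2, the beta-casein gene, stood at 170861 FPKM, the keratin genes Krt19, Krt18 and Krt8 at 244, 179 and 129, and Elf5, an alveolar transcription factor gene, at 577. Wap, the whey acidic protein gene, stood at 63664 FPKM, and all 8 luminal markers were at 21.4 FPKM or more. Muscle fibre genes were present too, below the milk protein and keratin genes named: Csn2 lay 4587 times and Krt18 4.79 times above Tnnt3, the highest muscle fibre gene. These muscle genes are the listed members themselves, so they give no separate check of the muscle signal. The 35 measured muscle fibre genes summed to 261 FPKM, or 0.0241% of the summed FPKM of all named genes.

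The muscle fibre genes did not stand at one level: 8 of them formed a high group and the rest spread down to 0. Tnnt3 had 37.2 FPKM, Tnni2 27.9, Ckm 27.6, Mylpf 26.8, Acta1 25.03, Myl1 21.9, Tnnc2 19.3 and Pvalb 17.7. These 8 genes held 77.9% of the members' summed FPKM, and each was higher than between 83.2% and 92.0% of all named genes. The next member, Myh4, stood at 8.37 FPKM, so the lowest of the 8 lay 2.12 times above it. The median over the 35 members was 1.87 FPKM, against 3.90 for all named genes, and 14 of the 35 lay above that median. High values were thus limited to a few members. The 8 were set apart at a gap seen in these same values, so their share and ranks follow from that choice.

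Counts at fixed levels show the same shape. At least 1 FPKM was reached by 22 of the 35 members (62.9%), against 73.6% of all named genes. At least 5 FPKM was reached by 12 members (34.3%), against 44.3%, and at least 20 by 6 members (17.1%), against 15.0%. The share at 20 FPKM was thus close to the background, and the shares at 1 and 5 FPKM were below it. No member reached 100 FPKM, a level that 2.96% of named genes reached. The lowest member above 1 FPKM was Neb at 1.10, and the highest below it was Myh1 at 0.82.

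**Figure D1:**
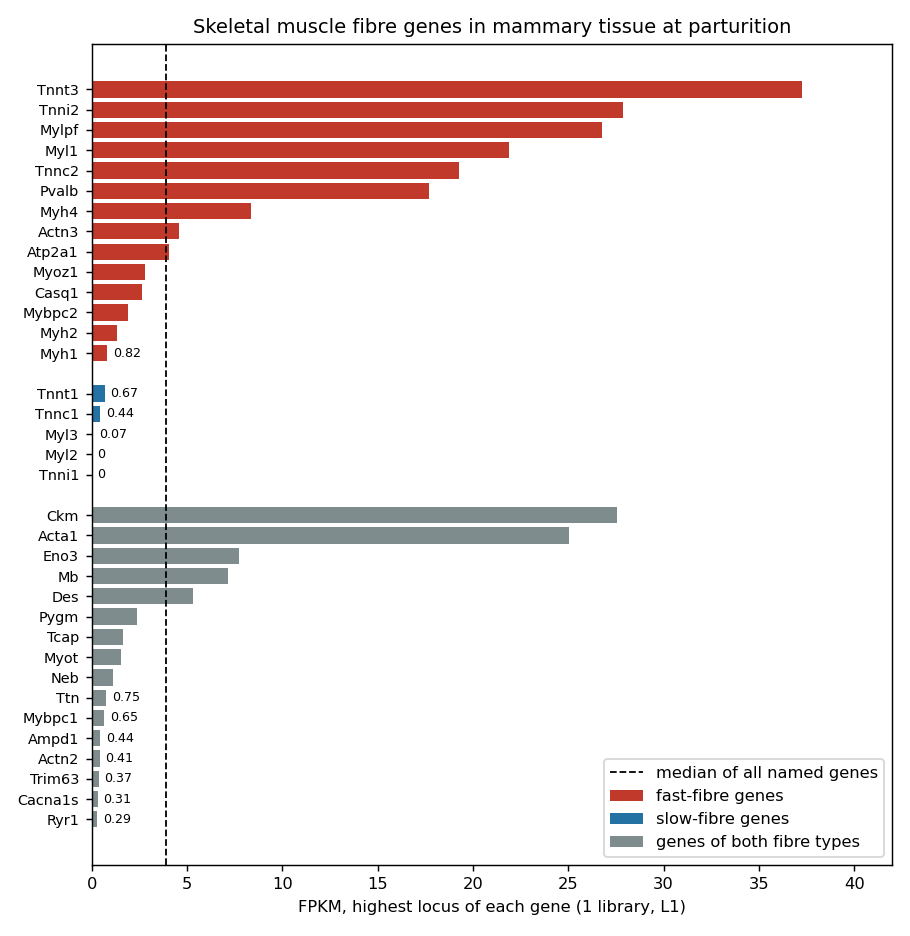
FPKM of the 35 measured skeletal muscle fibre genes in the single L1 library, as bars from 0, grouped into fast-fibre genes, slow-fibre genes and genes of both fibre types; values under 1 FPKM are written beside their bars. The dashed line is the median of all named genes, 3.90 FPKM, which no slow-fibre gene reached.

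The split by fibre type was wide. The 14 fast-fibre genes ran from 0.82 to 37.2 FPKM with a median of 6.48, and 9 of them lay above the median of named genes. The 5 measured slow-fibre genes ran from 0 to 0.67 FPKM with a median of 0.0655, and none reached the median of named genes. The groups as listed did not overlap: Myh1, the lowest fast-fibre gene, lay 1.22 times above Tnnt1, the highest slow-fibre gene. This gap was narrow and depended on the choice of locus: summed over its loci of 0.67 and 0.26 FPKM, Tnnt1 came to 0.93 FPKM, above Myh1. Fast-fibre genes held 67.9% of the members' summed FPKM and slow-fibre genes 0.452%. The gap and these shares hold only for the genes listed. Of slow-type genes outside the list, Tpm3 at 73.95 FPKM, Atp2a2 at 22.9 and Casq2 at 1.34 lay above Myh1. Tpm3 and Atp2a2 are used by many other cells too. Myoz2 at 0.46 FPKM, Sln at 0.10 and Myh7b at 0 lay below Myh1. In bulk tissue, few fibres of a type and little RNA per fibre cannot be told apart.

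**Figure D2:**
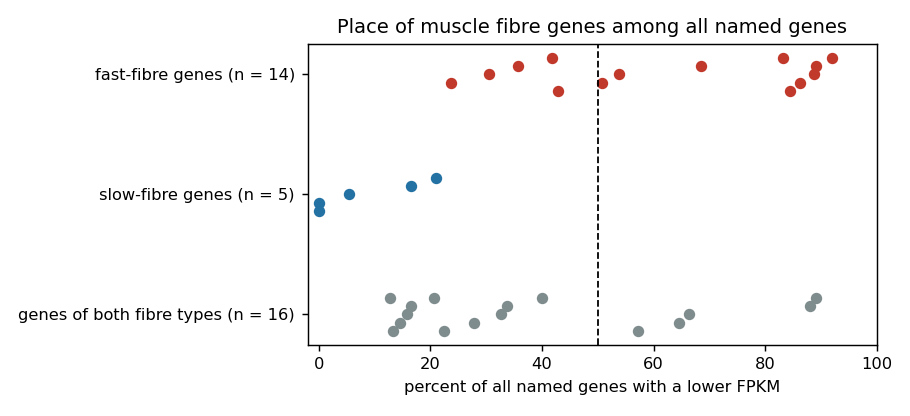
Percent of all 14847 named genes with a lower FPKM (horizontal axis), 1 point per muscle fibre gene, for fast-fibre, slow-fibre and shared genes; points are offset vertically only to be seen. The 5 slow-fibre genes lie between 0 and 21.04%, while the fast-fibre genes lie between 23.6% and 92.0%; the dashed line marks 50%.

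The promoter windows of 6 genes are shown in twos, the first gene far above the second, which stood under 1 FPKM. Myl1 with Myl3 and Tnnc2 with Tnnc1 are fast and slow counterparts, while Myh4 and Myh1 are both fast-fibre genes. Other genes would have met this too, such as Mylpf with Myl2, and are not shown. The windows run from 250 bases before to 50 bases after the RefSeq start of the gene in GRCm38.p6, on the strand of the gene. Capitals mark every match, on either strand, to the E-box CANNTG, which myogenic factors bind, to TATAAA, to the muscle motif CATTCC, to the CArG box or to the MEF2 box. The 6 windows hold 23 such matches, of which 0 overlap another.
Myh4 (chr11:67237562-67237861, plus strand): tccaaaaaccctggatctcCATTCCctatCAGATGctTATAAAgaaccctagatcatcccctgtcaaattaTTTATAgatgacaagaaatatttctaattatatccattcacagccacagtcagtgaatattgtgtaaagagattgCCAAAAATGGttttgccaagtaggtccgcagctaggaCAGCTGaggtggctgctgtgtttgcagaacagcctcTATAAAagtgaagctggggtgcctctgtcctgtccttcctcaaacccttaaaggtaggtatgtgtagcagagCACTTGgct
Myh1 (chr11:67199852-67200151, plus strand): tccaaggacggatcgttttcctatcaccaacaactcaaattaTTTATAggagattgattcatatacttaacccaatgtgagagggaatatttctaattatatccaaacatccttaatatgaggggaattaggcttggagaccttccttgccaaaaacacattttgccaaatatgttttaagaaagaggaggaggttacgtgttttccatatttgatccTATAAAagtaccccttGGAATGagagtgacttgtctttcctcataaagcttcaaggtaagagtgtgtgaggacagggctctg
Myl1 (chr1:66945007-66945306, minus strand): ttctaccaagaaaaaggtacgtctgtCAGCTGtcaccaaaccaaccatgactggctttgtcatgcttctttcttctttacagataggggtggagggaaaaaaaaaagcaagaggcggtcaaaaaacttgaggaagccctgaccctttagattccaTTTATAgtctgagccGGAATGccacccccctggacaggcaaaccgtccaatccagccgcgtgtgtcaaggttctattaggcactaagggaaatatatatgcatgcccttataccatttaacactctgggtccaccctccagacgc
Myl3 (chr9:110763428-110763727, plus strand): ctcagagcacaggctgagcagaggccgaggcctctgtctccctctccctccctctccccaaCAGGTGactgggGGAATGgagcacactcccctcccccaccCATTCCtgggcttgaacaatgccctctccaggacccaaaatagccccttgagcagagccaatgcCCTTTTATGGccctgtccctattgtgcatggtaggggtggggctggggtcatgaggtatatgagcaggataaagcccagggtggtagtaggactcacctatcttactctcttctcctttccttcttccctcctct
Tnnc2 (chr2:164779685-164779984, minus strand): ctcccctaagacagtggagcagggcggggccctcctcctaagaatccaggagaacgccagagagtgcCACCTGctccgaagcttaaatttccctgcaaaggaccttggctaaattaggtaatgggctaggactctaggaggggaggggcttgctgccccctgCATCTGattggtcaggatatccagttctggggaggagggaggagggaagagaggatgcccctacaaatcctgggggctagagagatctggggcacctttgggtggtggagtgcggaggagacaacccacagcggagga
Tnnc1 (chr14:31208062-31208361, plus strand): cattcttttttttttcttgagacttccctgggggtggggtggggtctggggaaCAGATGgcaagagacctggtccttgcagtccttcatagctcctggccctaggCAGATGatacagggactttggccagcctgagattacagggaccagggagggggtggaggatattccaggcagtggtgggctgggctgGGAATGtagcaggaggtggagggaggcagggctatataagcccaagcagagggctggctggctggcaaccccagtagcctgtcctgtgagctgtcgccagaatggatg
The starts are those of RefSeq, and the starts used in this tissue were not measured.

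These motifs were counted in every 300-base window of the promoter table. Of the 36 members, 28 had a window, with 34 windows in all. CANNTG was present in 30 of the 34 windows, against 72.3% of all 32851 windows, and TATAAA in 8, against 13.6%. CATTCC was present in 12 of 34, against 14.7%, the CArG box in 3, against 1.63%, and the MEF2 box in 1, against 0.557%. Windows of Mb, Myh7 and Tnni1 overlap others of the same gene, so a match there can be counted more than once. Counted by gene, CANNTG was present in 25 of 28, and the other counts stayed the same. Myh7 is among the 28, though its expression was not analysed here. Among the windows shown, the slow gene Myl3 holds a CArG box, as does the fast gene Myh4, while the window of Tnnc2 holds CANNTG only. A match is a string of letters and says nothing on whether a factor binds there.

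Troponin, the calcium switch of the thin filament, showed the split in all 3 subunits. Tnnt3, the fast subunit that anchors troponin to tropomyosin, stood at 37.2 FPKM and its slow counterpart Tnnt1 at 0.67, a ratio of 55.5. Tnnt1 summed over its loci came to 0.93 FPKM, and adding 1 FPKM to both genes gave a ratio of 22.9. Tnni2, the fast inhibitory subunit, stood at 27.9 FPKM, while its slow counterpart Tnni1 was listed at 0. Tnnc2, the fast calcium-binding subunit, stood at 19.3 FPKM, against 0.44 for the slow and cardiac Tnnc1, a ratio of 43.5. Adding 1 FPKM to both of these genes gave 14.0. The slow values are below 1 FPKM at unknown depth, so the size of these ratios is uncertain. Over the 3 subunits, fast genes summed to 84.4 FPKM and slow genes to 1.11. The fast subunits were also close to one another, since Tnnt3 lay only 1.34 times above Tnni2 and 1.93 times above Tnnc2.

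Genes of troponin I and troponin T lie in pairs in the mouse genome. Both genes were measured for Tnni2 with Tnnt3, which were both high, and for Tnni1 with Tnnt2, which were both low. Tnni2, Tnnt3 and Tnni1 are genes of the fast-to-slow split above, so these pairs give no separate result. In the gene order of GRCm38.p6, Tnni2 and Tnnt3 have 1 coding gene between them and stood at 27.9 and 37.2 FPKM. Tnni1 and the cardiac Tnnt2 also have 1 coding gene between them, and stood at 0 and 0.89 FPKM. Tnnt1 borders Tnni3, which was not analysed here.

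The other thin filament members were Acta1 and Neb. Acta1, the skeletal muscle actin gene, stood at 25.03 FPKM, at the level of the fast troponins. Actin genes are nearly alike in their coding sequence, and the authors' mapping could have divided reads between Acta1 and its relatives. Neb, a giant protein that spans the thin filament, stood at 1.10 FPKM in its highest locus, 22.8 times below Acta1. Neb was spread over 3 loci of 1.10, 0.64 and 0 FPKM, and came to 1.74 when they were summed.

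In the thick filament, the fast light chain genes stood above the fast heavy chain genes. Mylpf, the fast regulatory light chain, stood at 26.8 FPKM and Myl1, the fast essential light chain, at 21.9. Their slow and cardiac counterparts Myl2 and Myl3 were listed at 0 and at 0.0655 FPKM. Together Mylpf and Myl1 lay 4.62 times above the sum of the fast heavy chain genes Myh4, Myh2 and Myh1. The light chains thus repeated the fast-to-slow split of the troponins.

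Among the fast heavy chains, which carry the motor, the gene of the fastest fibres led. Myh4, the heavy chain of type IIb fibres, stood at 8.37 FPKM, Myh2, of type IIa fibres, at 1.34, and Myh1, of type IIx fibres, at 0.82. Myh4 made up 79.5% of their sum, Myh2 12.8% and Myh1 7.77%. Myh2, Myh1 and Myh4 are direct neighbours on the chromosome and closely similar in sequence, so the authors' mapping could have moved reads between them and the order of Myh2 and Myh1 is uncertain. Mybpc2, the fast myosin-binding protein C, stood at 1.87 FPKM, 2.88 times above its slow-type relative Mybpc1 at 0.65. Adding 1 FPKM to both genes gave a ratio of 1.74. Mybpc1 is grouped here with the genes of both fibre types, so it does not enter the values of the slow-fibre group.

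**Figure D3:**
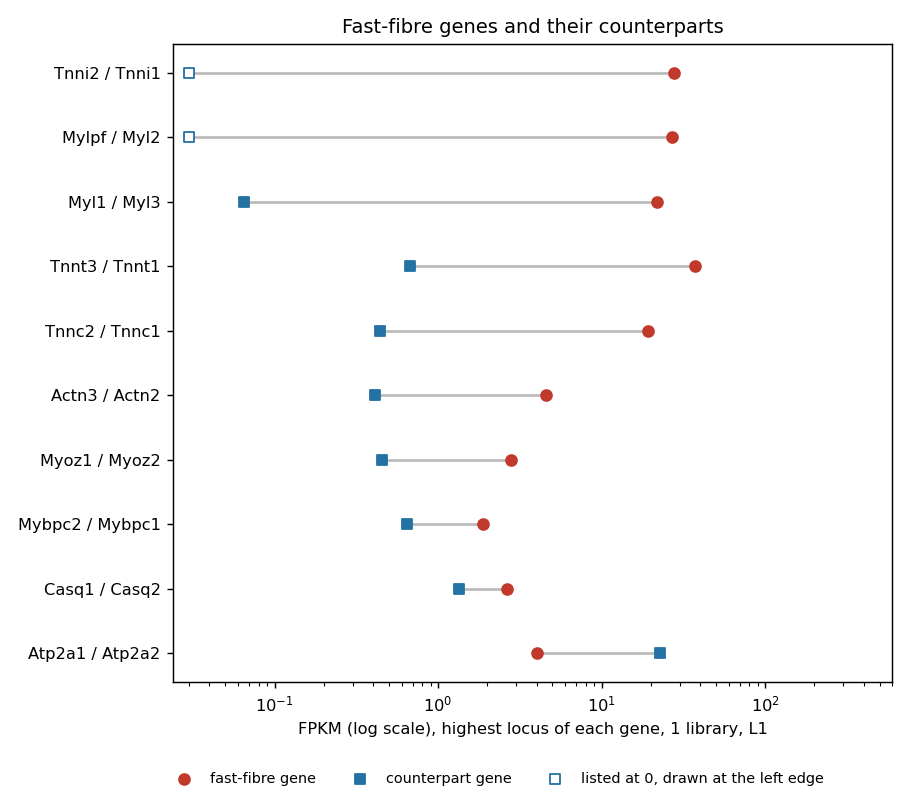
FPKM on a log axis for the 10 measured pairs of a fast-fibre gene (circles) and its slow, cardiac or shared counterpart (squares) in the single L1 library; open squares are genes listed at 0, drawn at the left edge. The fast gene is the higher one in 9 pairs, and Atp2a1 with Atp2a2 is the exception.

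The Z-disc anchors thin filaments, and the scaffold around it keeps the sarcomeres in register. Actn3, the alpha-actinin of fast fibres, stood at 4.59 FPKM, 11.1 times above Actn2, the alpha-actinin of all fibres, at 0.41. Myoz1, the fast-fibre calsarcin, stood at 2.78 FPKM, 6.11 times above the slow and cardiac Myoz2 at 0.46. With 1 FPKM added to each gene, the ratios were 3.96 for Actn3 over Actn2 and 2.60 for Myoz1 over Myoz2. Des, the intermediate filament gene that smooth muscle also uses, was the highest of the group at 5.31 FPKM. Below it were Tcap, which caps titin, at 1.66 FPKM, Myot, which binds alpha-actinin, at 1.55, and Ttn, the giant titin gene, at 0.75. None of these 7 genes came near the high group, whose lowest member stood at 17.7 FPKM.

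Genes of calcium handling ranged widely. Pvalb, the calcium buffer of fast fibres, stood at 17.7 FPKM, 4.38 times above Atp2a1, the fast calcium pump of the sarcoplasmic reticulum, at 4.04. Casq1, the fast calcium store protein, stood at 2.63 FPKM and its slow and cardiac relative Casq2 at 1.34. The channels that start contraction were low: Ryr1, the calcium release channel, stood at 0.29 FPKM and Cacna1s, the voltage sensor, at 0.31. Atp2a2, the calcium pump of slow and cardiac muscle, which most other cells also use, stood at 22.9 FPKM, 5.66 times above Atp2a1. That made it the only counterpart to exceed its fast gene among the 10 measured pairs.

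Energy supply was led by Ckm, the muscle creatine kinase, which rebuilds ATP from phosphocreatine, at 27.6 FPKM. Its other locus held 0.32 FPKM. Eno3, the muscle enolase, stood at 7.70 FPKM, Mb, the oxygen store myoglobin, at 7.14, and Pygm, the muscle glycogen phosphorylase, at 2.40. Ampd1, the muscle AMP deaminase, stood at 0.44 FPKM, 62.5 times below Ckm. Trim63, a ubiquitin ligase of muscle wasting, stood at 0.37 FPKM, while its relative Trim55 was at 4.70 and Fbxo32, another ligase of wasting muscle, at 4.68. Trim55 was spread over 16 loci and came to 18.5 FPKM when they were summed, a sum that can grow with the number of loci.

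Muscle forms were set against paralogues that other cells of the gland use. In 12 of 14 measured pairs the paralogue was higher. Pygm, Ampd1, Actn3 and Mylpf each enter more than once, with different partners, so the pairs are not separate counts. Pgam2, the muscle phosphoglycerate mutase, enters a pair but is not a listed member. Acta1 at 25.03 FPKM lay 14.2 times below the cytoplasmic actin gene Actb at 356, and Des at 5.31 lay 10.4 times below Vim at 55.4. Pygm at 2.40 FPKM was below both Pygl at 12.4 and Pygb at 15.2, and Ampd1 at 0.44 was below Ampd2 at 6.18 and Ampd3 at 0.68. In most of these pairs the muscle form was thus the smaller share.

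The exceptions were the creatine kinases and a pair of light chains. Ckm at 27.6 FPKM lay 2.63 times above Ckb, the brain-type creatine kinase, at 10.5, and Mylpf at 26.8 lay 1.63 times above Myl12b, a nonmuscle light chain, at 16.4. Mylpf was still below Myl9, the smooth muscle light chain, at 77.3. Actn3 at 4.59 FPKM was close to Actn1 at 5.54 and far below Actn4 at 70.1, and Myh4 at 8.37 was below the nonmuscle heavy chain gene Myh9 at 17.9, or 28.4 summed over its loci. Ryr1 at 0.29 FPKM lay 18.8 times below Itpr3, another calcium release channel gene, at 5.47, or 5.01 times with 1 FPKM added to both. The partners Eno1, Acta2 and Myl6 were not analysed here.

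**Figure D4:**
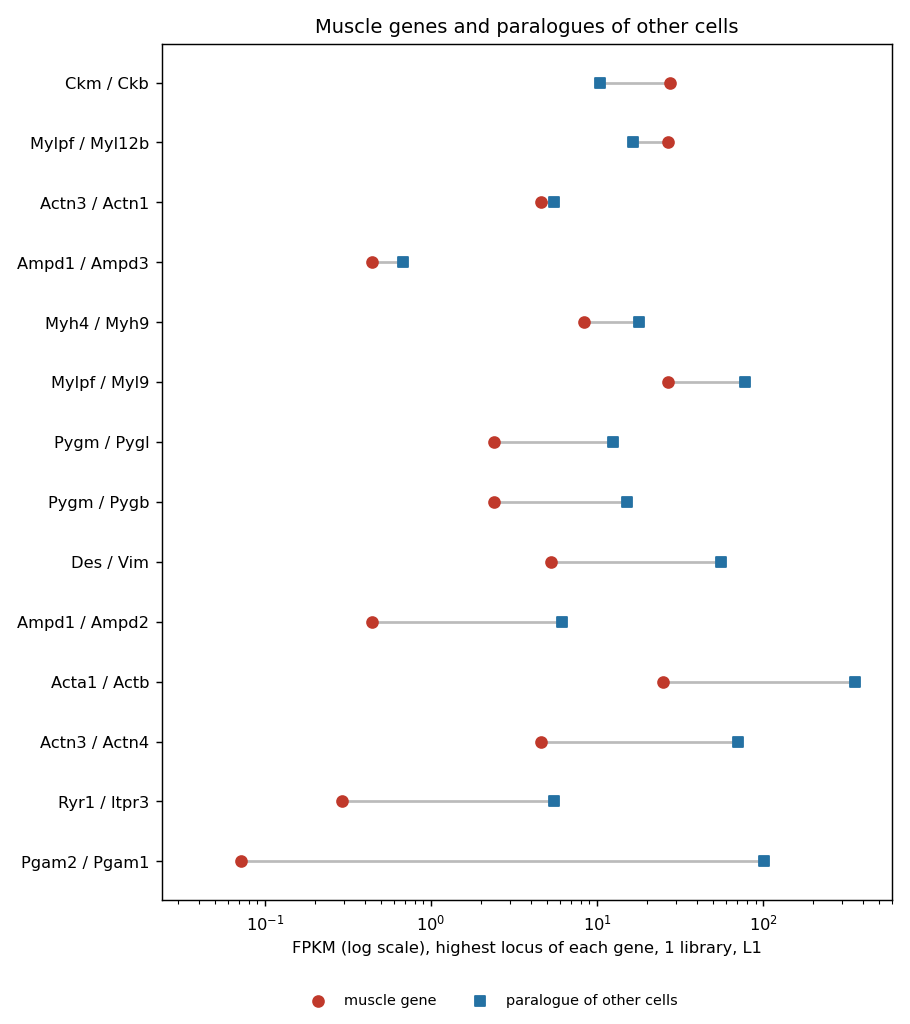
FPKM on a log axis for 14 pairs of a muscle gene (circles) and a paralogue of other cells (squares) in the single L1 library, ordered by the share of the muscle gene in the pair. Ckm lies to the right of Ckb and Mylpf to the right of Myl12b; in the other 12 pairs the muscle gene lies to the left.

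Other muscle genes outside the 36 were read from lists of the same pathways. Of 25 measured sarcomere genes, 4 lay above the median of named genes: Tpm2 at 99.8 FPKM, Tpm1 at 86.9, Ldb3 at 13.4 and Pdlim3 at 4.68. The tropomyosin genes Tpm1 and Tpm2 also serve smooth muscle and myoepithelium. The median of the 25 was 0.44 FPKM, and Xirp1 and Myoz3 were among those listed at 0. Of the slow and cardiac genes beside those already given, Tpm3, which many cells use, stood at 73.95 FPKM, Sln at 0.10 and Myh7b at 0. The median over 6 measured genes of that list, with Atp2a2, Casq2 and Myoz2, was 0.90. Most sarcomere genes outside the 36 were thus as low as the lower members.

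Calcium coupling genes outside the 36 had a median of 1.30 FPKM over 14, with Asph at 10.7, Mtmr14 at 3.83, Rtn2 at 2.66 and the junctophilin gene Jph2 at 2.47. For energy supply the median of 18 genes was 4.34 FPKM, led by Fabp3 at 2220, Gpd1 at 195, Cox7a1 at 76.5 and Cpt1b at 11.8. These leaders are also genes of secretory epithelium or fat, and Pgam2, the muscle phosphoglycerate mutase, stood at 0.0719 FPKM, against 100.7 for Pgam1. The dystrophin complex, which ties the fibre to its matrix, gave 11 measured genes and a median of 2.22 FPKM. Of its higher members, Dmd at 10.4 FPKM, Dag1 at 9.74 (17.6 summed over its loci) and Dysf at 5.76 are not limited to skeletal muscle, while the caveolin gene Cav3 of muscle membranes was listed at 0.

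Of 15 regulators of muscle formation 7 were measured, and 2 of them lay above the median of named genes. Mef2a stood at 8.48 FPKM, Mef2d at 5.62 and Mef2c at 1.80, all of which other tissues use too. Mstn, the myostatin gene that limits muscle growth, stood at 0.96 FPKM, Six4 at 0.92 and Msc at 0.63. Pax7, Pax3, Myf5, Myod1, Myog, Myf6, Cdh15 and Vgll2 were not analysed here. Of genes of the neuromuscular junction, 5 of 12 were measured, with Utrn at 12.4 FPKM, Chrnb1 at 1.22, Lrp4 at 0.84, Rapsn at 0.31 and Dok7 listed at 0. For chaperones and ligases of muscle the median of 10 measured genes was 0.53 FPKM, led by Cryab at 10.6, Trim55, Fbxo32 and Hspb8 at 4.47.

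Markers of other contractile tissues were read beside these values. Over 13 measured genes of smooth muscle and myoepithelium the median was 10.1 FPKM, with Cnn1 at 59.0, Krt14 at 54.2, Krt5 at 37.9 and Mylk at 37.1, and 9 of the 13 lay above the median of named genes. Des is in that list as well, and its cell of origin was not tested. The cardiac list had 4 of 11 genes measured, all below 1 FPKM: Tnnt2 at 0.89, Gja5 at 0.70, Actc1 at 0.0628 and Hcn4 at 0.0358, or 0.0709 summed over its loci. Of genes used in developing muscle, 3 of 6 were measured, with Myl4 at 1.63 FPKM beside Tnnt2 and Actc1.

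Brown fat and skin were the remaining tissues looked at. For brown fat 9 of 9 genes were measured, and their median was 6.36 FPKM. Cidea stood at 723 FPKM, Cox7a1 at 76.5, Cpt1b at 11.8, Cox8b at 7.80 and the defining gene Ucp1 at 6.36, while the other 4 genes lay between 0.24 and 1.37. Cox7a1, Cpt1b and Cox8b are shared between brown fat and muscle. The value of Cidea is not read here as a measure of brown fat, since its cell of origin was not tested. Of 6 keratinocyte genes 4 were measured, with Krt15 at 27.3 FPKM, Krt10 at 2.91, Krt77 at 0.43 and Lor at 0.22. The part of any of these tissues in the muscle fibre values was not tested.

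**Figure D5:**
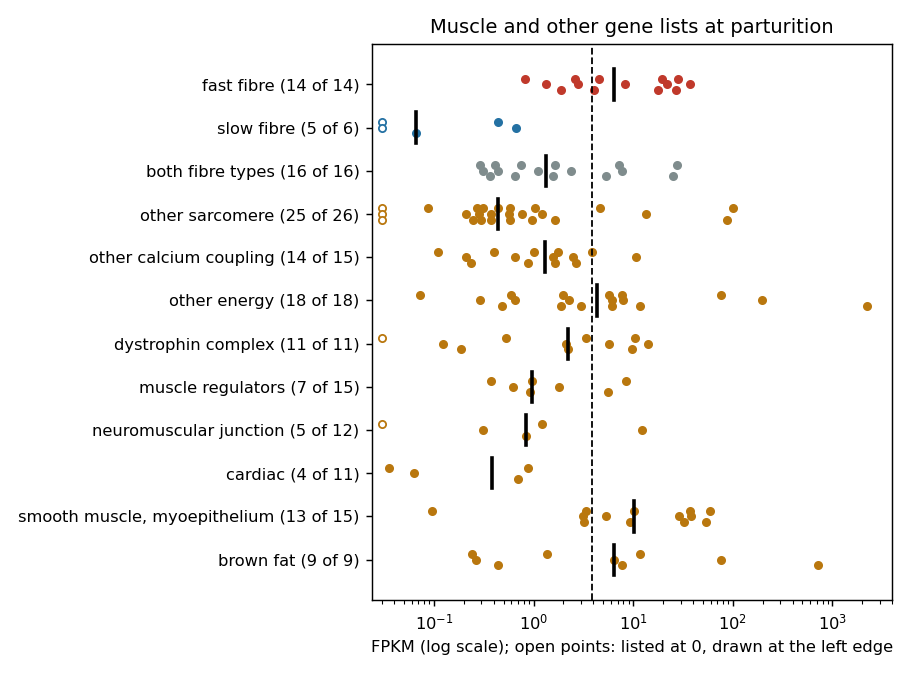
FPKM on a log axis of the measured genes of 12 lists in the single L1 library, with measured and listed numbers in brackets; black bars are list medians, the dashed line is the median of all named genes (3.90 FPKM), and open points are genes listed at 0. Fast-fibre genes centre on 6.48 FPKM, slow-fibre genes on 0.0655 and cardiac genes on 0.38.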

How the data were processed

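RNA was made into 1 poly(A)-selected TruSeq library from L1 tissue and sequenced on an Illumina HiSeq, per the labels' protocols. The submitters' processing notes name CASAVA, TopHat and mm9; for their versions and for the tool behind the FPKM values the sources used here give nothing. The authors' deposited table gives FPKM per assembled locus, 30305 loci in all, of which 21958 carry 1 symbol, 117 several and 8230 none. Its only value column is headed L1WT and was taken as the L1 sample. Whether the counting used strand is not stated.

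A gene took its highest locus, with no minimum FPKM; loci with several symbols were left out, and no measured member was among them. Of 216 genes in the lists and pairs, 179 were measured, 1 of them through an older symbol of the GRCm38.p6 gene table. List medians and ratios of FPKM were computed with pandas 2.3.3 and numpy 2.4.6 in Python 3.11.15, and the steps were tested on simulated data. Promoter sequences are from RefSeq, GRCm38.p6. Alternatives were the sum over loci, a minimum of 1 FPKM, genes with 1 locus and a pseudocount of 1 FPKM. The members and lists were chosen with earlier results of these data known. Named are all members, both genes of each pair, the 4 highest and the zero-valued genes of other lists, and all muscle regulators, developmental and cardiac genes; a few of these genes are not reported here. The peak lists of the ChIP-seq libraries were not used here, since no annotation of their build was at hand.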

Additional observations from a re-analysis of the deposited data

How the results depend on the processing

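Of 163 values recomputed under an alternative, 133 stayed within 1.5 times the main value and 30 moved further. For each pair the value compared was the percent of the pair held by its fast or muscle gene, which moves little near 100%. Ratios with a low counterpart moved more. A pseudocount of 1 FPKM took Tnnt3 over Tnnt1 from 55.5 to 22.9 and Tnnc2 over Tnnc1 from 43.5 to 14.0. Actn3 over Actn2 went from 11.1 to 3.96, while Casq1 over Casq2 went only from 1.96 to 1.55. Direction was checked only for which gene of a pair was higher, and there 0 changed. Genes with 1 locus cannot move when loci are summed, so many of the unmoved values were fixed in advance. The order of Myh1 and Tnnt1, which are not a pair, did change when loci were summed. With a minimum of 1 FPKM the median was 6.22 FPKM for the members, 5.31 for genes of both fibre types and 6.76 for all named genes, by construction, because low genes leave; no slow-fibre gene is left, so that list has no value. With single-locus genes the slow-fibre median was 0.0327 FPKM. As a share of all loci, summed over loci, the members came to 0.0112%. Summing loci or adding a pseudocount of 1 FPKM left the fast gene higher in 9 of 10 pairs and the muscle gene higher in 2 of 14. No paired analysis was possible because the result comes from 1 library and no test. Depth is unknown, so which low values differ from 0 cannot be told.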

Other observations

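Genes of muscle energy supply differed widely in level. Ckm lay 383 times above Pgam2. Aldoa, the aldolase of muscle and other cells, stood at 1.90 FPKM, or 2.06 summed over its 2 loci. Its value was chosen after it was seen, and whether loci without a symbol hold more of its RNA was not tested. Cox6a2, the muscle form of a respiratory chain subunit, stood at 2.97 FPKM and was also chosen after its value was seen. Trim55 lay 12.8 times above Trim63 by its highest locus and 50.6 times when loci were summed. FPKM is already scaled by locus length, so a sum over the 16 loci of Trim55 can grow with their number. The 50.6 is thus not an equal estimate of the difference in level. Among the 35 measured members, 31 had 1 locus and 4 had several, so the choice of locus bears on Ckm, Neb, Ryr1 and Tnnt1 only.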
